A study of Mus musculus with 9 samples.

Results

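The genes described here are 10 feedback inhibitors of mitogen-activated protein kinase (MAPK) signaling, followed in sorted lung fibroblasts of aged mice after sham or bleomycin treatment. They were taken by symbol from the deposited table of 43346 genes, in which all 10 were found, and comprise 5 dual-specificity phosphatase genes (Dusp1, Dusp4, Dusp5, Dusp6, and Dusp10), 3 Sprouty genes (Spry1, Spry2, and Spry4), and 2 Sprouty-related genes (Spred1 and Spred2). They lie on 10 different chromosomes. RNA-Seq was carried out on 4 aged sham and 5 aged bleo libraries. All mice were Col1a1-GFP transgenic males on an FVB background, with an age given as 18 months and also as 72 weeks, in which the collagen I promoter drives GFP. Aged sham mice received saline and aged bleo mice a single dose of bleomycin, a DNA-damaging drug that injures the lung, into the trachea, and lungs were taken on day 30. GFP+ cells without CD45, CD31, or EpCAM on their surface were sorted from the digested lungs, so the cells were chosen by the activity of a collagen promoter.

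Growth factor receptors signal through Ras and the kinases RAF and MEK to the MAPK called ERK, while stress and cytokines act mainly through the MAPKs p38 and JNK. Active MAPKs induce their own inhibitors within minutes to hours, and the transcripts of these inhibitors are therefore often used as a readout of the pathway. DUSP phosphatases remove the activating phosphates from MAPKs, and Sprouty and SPRED proteins act further upstream, between the receptor and RAF. In fibroblasts this pathway carries the signals of FGF, PDGF, and other growth factors.

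Library totals ranged from 49921946 to 62370512 counts in the aged sham group and from 53833507 to 68260600 in the aged bleo group. The least abundant member, Dusp4, was covered by 183 to 1649 reads per library, and Dusp1 by 31139 to 85689. Fibroblast transcripts were abundant in all 9 libraries, and the summed level of 6 markers was 24399 to 30152 CPM (read counts scaled to a common library size after TMM normalization) across aged sham and 54352 to 71786 CPM across aged bleo libraries. These markers moved in both directions, with the collagen genes Col1a1, Col1a2, and Col3a1 higher, Dcn lower (log2 fold change -1.54, FDR 0.00667), and Lum and Pdgfra not called. Of the 6 endothelial markers the sum was 11.0 to 15.6 CPM in the aged sham group and 12.3 to 19.8 CPM in aged bleo, and of the 6 epithelial markers it was 9.24 to 79.6 CPM and 16.1 to 52.7 CPM. Leukocyte transcripts were present as well, at 89.5 to 327 CPM in the aged sham group and 91.0 to 509 CPM in aged bleo for 5 markers, among them Ptprc, which encodes CD45. The 7 neutrophil markers summed to 207 to 1224 CPM and 101 to 1074 CPM, and the 6 macrophage markers to 130 to 245 CPM in the aged sham group and 434 to 1376 CPM in aged bleo. Beyond the choice of GFP+ cells, the sort had no step against smooth muscle cells and pericytes. The 6 markers of these cell types summed to 3013 to 6129 CPM across aged sham and 2170 to 3297 CPM across aged bleo libraries. The sum was lowest in aged bleo 4, and 3 of the markers (Myh11, Cnn1, and Lmod1) were called lower. Acta2, also in this list, is treated by the study as a myofibroblast marker, so these levels do not establish which cells were present. The call was lost for Myh11 without aged sham 3 (FDR 0.104) and for Lmod1 without aged sham 2, aged sham 3, or aged bleo 5 (FDR 0.122, 0.123, and 0.103). Any part of smooth muscle cells or pericytes in the lower levels of Spry2, Dusp10, and Dusp1 described below was not tested. No marker of these lists was at 0 in any library. In such bulk samples, fewer cells of a type and less RNA per cell cannot be told apart.

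The feedback inhibitors did not move together after bleomycin. Spry2, Dusp10, and Dusp1 fell by factors of 2.17, 1.90, and 1.82, Dusp4 and Spred1 rose, and the other 5 genes did not pass the thresholds. Genes were called at an adjusted p (FDR) under 0.10 and a fold change over 1.5 in edgeR's quasi-likelihood test, adjusted over the 16877 genes tested. Under this rule, 5 of the 10 members were called, 2 higher and 3 lower, against 23.8% of all genes tested (12.3% higher and 11.5% lower). The same 5 were those in which no aged bleo library overlapped the aged sham libraries, which held for 32.2% of all genes tested (16.1% in each direction). By FDR alone, 6 members passed, Spry4 in addition, against 44.8% of all genes tested. The median log2 fold change was 0.21 over the 10 members and 0.0064 over all genes tested.

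**Figure D1:**
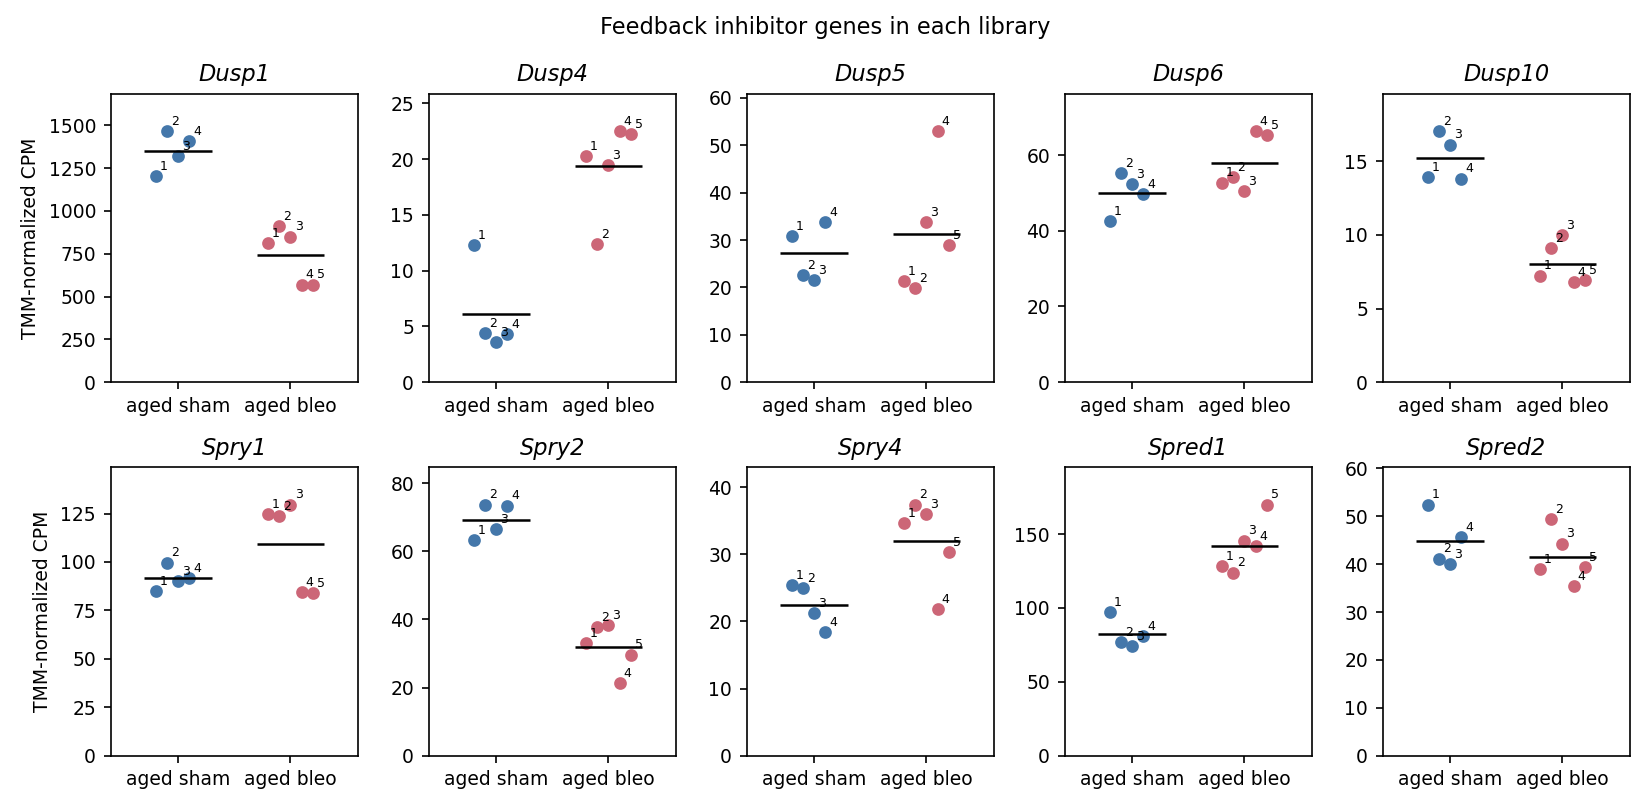
Level of each of the 10 genes in TMM-normalized CPM (linear axis from 0) in each aged sham (blue) and aged bleo (red) library, with the replicate number beside each point and the group mean as a bar. Dusp1, Dusp10, and Spry2 lie below, and Dusp4 and Spred1 above, the whole aged sham range in all 5 aged bleo libraries.

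Dusp1 (ENSMUSG00000024190, GRCm38 chromosome 17, 26505590 to 26508519) encodes a nuclear phosphatase that acts on p38, JNK, and ERK and is a classical immediate early gene. Its level was 1202, 1466, 1322, and 1409 CPM in aged sham 1 to 4 and 811, 910.3, 850.1, 570.0, and 570.1 CPM in aged bleo 1 to 5. All aged bleo libraries lay below all aged sham libraries, and aged bleo 4 and aged bleo 5 were the lowest. The mean was 1350 ± 115 CPM (SD, n = 4) in the aged sham group and 742 ± 161 CPM (SD, n = 5) in aged bleo, a 1.82-fold lower level (log2 fold change -0.86, standard error 0.17, FDR 0.00493). Leaving out single libraries gave log2 fold changes from -0.95 to -0.78, and Dusp1 passed the thresholds each time. On the FPKM scale, which divides by gene length as well as library size and allows levels of different genes to be compared, Dusp1 was by far the most abundant member, with 210 ± 18.5 FPKM (SD, n = 4) in the aged sham group and 118 ± 23.0 FPKM (SD, n = 5) in aged bleo.

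The promoters of the members were searched for the motifs of factors that act downstream of MAPKs, in the 250 bases before the transcription start of 8 members with an entry in the RefSeq table (GRCm38.p6). Dusp4 and Spry4 were not part of this search. The starts of Dusp6, Spry1, and Spry2 match the ends of the gene spans printed in this text. Those of Dusp1, Dusp5, Dusp10, Spred1, and Spred2 differ from them. The window of Dusp10 lay inside its gene span, and those of Dusp1, Dusp5, and Spred2 reached into theirs. The cAMP response element TGACGTCA was found in 1 of the 8 members, Dusp1, and in 1.55% of 32851 promoters. Its core TGACG, searched on both strands and contained in the full element, was found in 3 members (Dusp1, Dusp5, and Spred2) and in 17.8% of promoters. The E-box CACGTG was found in Dusp1 and in 6.02% of promoters, and the CArG box, bound by serum response factor, in Dusp5 and in 1.47% of promoters. No member had the AP-1 motifs TGACTCA or TGAGTCA (4.46% of promoters) or the ETS motif CCGGAAG on either strand (6.91%). Dusp1 and Spry2 are shown because both fell, the former with a cAMP response element and an E-box and the latter with no match to any motif searched. Whether these motifs had a part in the levels was not tested. A stretch of Dusp5 is shown because it holds a pair of CArG boxes. Capitals mark the matches, and all are written 5′ to 3′ on the strand of the gene.
Dusp1, chr17:26508473-26508722, minus strand: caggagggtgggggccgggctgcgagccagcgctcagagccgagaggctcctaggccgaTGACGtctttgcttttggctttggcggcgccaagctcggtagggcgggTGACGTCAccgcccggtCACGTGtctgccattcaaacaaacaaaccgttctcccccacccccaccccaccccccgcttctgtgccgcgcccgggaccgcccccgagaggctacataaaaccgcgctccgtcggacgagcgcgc
Spry2, chr14:105896820-105897069, minus strand: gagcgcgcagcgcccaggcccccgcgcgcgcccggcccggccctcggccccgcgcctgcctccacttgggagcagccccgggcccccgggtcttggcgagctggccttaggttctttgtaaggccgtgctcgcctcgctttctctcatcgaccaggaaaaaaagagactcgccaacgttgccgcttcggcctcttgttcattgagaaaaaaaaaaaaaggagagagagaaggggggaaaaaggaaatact
Dusp5, chr19:53529053-53529094, plus strand: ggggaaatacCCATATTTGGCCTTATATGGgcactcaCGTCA

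Dusp4 (ENSMUSG00000031530, chromosome 8, 34807297 to 34819894), a nuclear phosphatase of ERK and JNK, moved opposite to Dusp1. It was at 12.3, 4.36, 3.56, and 4.34 CPM in aged sham 1 to 4 and at 20.3, 12.4, 19.5, 22.5, and 22.3 CPM in aged bleo 1 to 5. Aged sham 1 stood far above the other aged sham libraries and just below aged bleo 2, the lowest of the injured libraries, at 12.28 against 12.39 CPM. The mean rose from 6.13 ± 4.11 CPM (SD, n = 4) to 19.4 ± 4.12 CPM (SD, n = 5), a 3.15-fold higher level (log2 fold change 1.66, standard error 0.38, FDR 0.00998). Without aged sham 1 the log2 fold change was 2.24, and with any other single library left out it lay between 1.48 and 1.78. Aged sham 1 also had the highest summed level of 6 proliferation markers among the aged sham libraries, 53.2 CPM against 7.93 to 10.0 CPM in the others. In aged bleo this sum was lowest in aged bleo 2 (33.4 CPM) and highest in aged bleo 4 and aged bleo 5 (259 and 232 CPM), the order at both ends that Dusp4 had. The part of proliferating cells in the level of Dusp4 was not tested.

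Dusp5 (ENSMUSG00000034765, chromosome 19, 53529109 to 53542431) encodes a nuclear phosphatase that is selective for ERK. It was at 30.9, 22.6, 21.5, and 33.8 CPM in aged sham 1 to 4 and at 21.3, 19.9, 33.7, 53.0, and 28.9 CPM in aged bleo 1 to 5. The groups overlapped over most of their range, and aged bleo 4 was the only library above 33.8 CPM. No difference was detectable (log2 fold change 0.21, 95% confidence interval -0.44 to 0.85, FDR 0.608), and the estimate was -0.077 without aged bleo 4. Leukocyte and neutrophil markers were likewise highest within their groups in aged bleo 4 (509 and 1074 CPM) and aged sham 4 (327 and 1224 CPM), the libraries with the highest Dusp5 of each group. The other aged sham libraries did not follow this order. Aged sham 1, with Dusp5 at 30.9 CPM, had the lowest sums of its group (89.5 and 207 CPM). Aged sham 3, with the lowest Dusp5 of its group, had 174 and 558 CPM. Whether leukocytes or neutrophils contributed to Dusp5 was not tested.

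Dusp6 (ENSMUSG00000019960, chromosome 10, 99263231 to 99267488), the cytoplasmic phosphatase of ERK and a widely used marker of ERK activity, was at 42.6, 55.2, 52.4, and 49.7 CPM in aged sham 1 to 4 and at 52.7, 54.3, 50.5, 66.3, and 65.3 CPM in aged bleo 1 to 5. Aged bleo 4 and aged bleo 5 lay above all aged sham libraries, and the other 3 aged bleo libraries within the aged sham range. The log2 fold change was 0.21 (95% confidence interval -0.04 to 0.46, FDR 0.167), an interval that does not reach the fold change threshold of 1.5.

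Dusp10 (ENSMUSG00000039384, chromosome 1, 184013302 to 184075636) encodes a phosphatase that prefers p38 and JNK over ERK. It was at 13.9, 17.0, 16.1, and 13.8 CPM in aged sham 1 to 4 and at 7.24, 9.12, 9.97, 6.78, and 6.94 CPM in aged bleo 1 to 5. The groups were well apart, and aged bleo 4 and aged bleo 5 were again the lowest. The level was 1.90-fold lower in the aged bleo group (log2 fold change -0.93, standard error 0.14, FDR 0.00158). On the log2(FPKM + 1) scale, which compresses low levels, the log2 fold change was -0.54 and under the fold change threshold.

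Among the Sprouty genes, whose products block growth factor receptors from activating Ras and RAF, Spry2 fell while Spry1 did not. Spry2 (ENSMUSG00000022114, chromosome 14, 105891949 to 105896819) was at 63.3, 73.7, 66.6, and 73.3 CPM in aged sham 1 to 4 and at 32.9, 37.6, 38.3, 21.4, and 29.6 CPM in aged bleo 1 to 5. Every injured library was far below the uninjured range, with aged bleo 4 lowest. The mean was 2.17-fold lower in the aged bleo group (69.2 ± 5.11 CPM, SD, n = 4, against 32.0 ± 6.91 CPM, SD, n = 5, log2 fold change -1.12, standard error 0.16, FDR 0.00112). Spry2 had the lowest FDR of the 10 members and, with Dusp4, also passed the stricter thresholds (FDR under 0.05, more than 2-fold change), as did 12.8% of all genes tested.

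Spry1 (ENSMUSG00000037211, chromosome 3, 37639947 to 37644598) was at 84.9, 99.7, 90.1, and 91.8 CPM in aged sham 1 to 4 and at 125, 124, 130, 84.4, and 83.8 CPM in aged bleo 1 to 5. Aged bleo 1 to 3 were above all aged sham libraries, whereas aged bleo 4 and aged bleo 5 lay just under the lowest, aged sham 1. On the FPKM scale both were within the aged sham range (13.0 and 12.5 FPKM against 12.2 to 14.6 FPKM). The log2 fold change of 0.25 did not pass the test (95% confidence interval -0.09 to 0.59, FDR 0.219). Spry4 (ENSMUSG00000024427, chromosome 18, 38586268 to 38601268) was at 25.5, 24.998, 21.2, and 18.4 CPM in aged sham 1 to 4 and at 34.7, 37.4, 36.0, 21.9, and 30.3 CPM in aged bleo 1 to 5. It was above the aged sham range in 4 of 5 aged bleo libraries and within it in aged bleo 4. Its difference passed the FDR threshold but not that of the fold change (log2 fold change 0.51, standard error 0.17, FDR 0.0397). Both were passed without aged bleo 4 (log2 fold change 0.61, FDR 0.00559) and neither without aged sham 4 (log2 fold change 0.42, FDR 0.105).

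SPRED proteins bind neurofibromin, the product of Nf1, and bring it to the membrane, where it switches Ras off. Spred1 (ENSMUSG00000027351, chromosome 2, 117121374 to 117182279) was at 97.3, 76.7, 73.9, and 81.0 CPM in aged sham 1 to 4 and at 128, 124, 146, 142, and 169.9 CPM in aged bleo 1 to 5. All injured libraries were above all uninjured ones, and aged sham 1 was the highest of the latter. The level was 1.72-fold higher in the aged bleo group (log2 fold change 0.79, standard error 0.12, FDR 0.00146). Spred2 (ENSMUSG00000045671, chromosome 11, 19924375 to 20024026) ranged from 40.1 to 52.4 CPM in the aged sham group and from 35.4 to 49.4 CPM in aged bleo, with overlapping groups (log2 fold change -0.11, 95% confidence interval -0.37 to 0.15, FDR 0.476). Nf1 itself was at 65.4 ± 8.47 CPM (SD, n = 4) in the aged sham group and 79.1 ± 5.43 CPM (SD, n = 5) in aged bleo, under the fold change threshold (log2 fold change 0.27, FDR 0.0465).

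**Figure D2:**
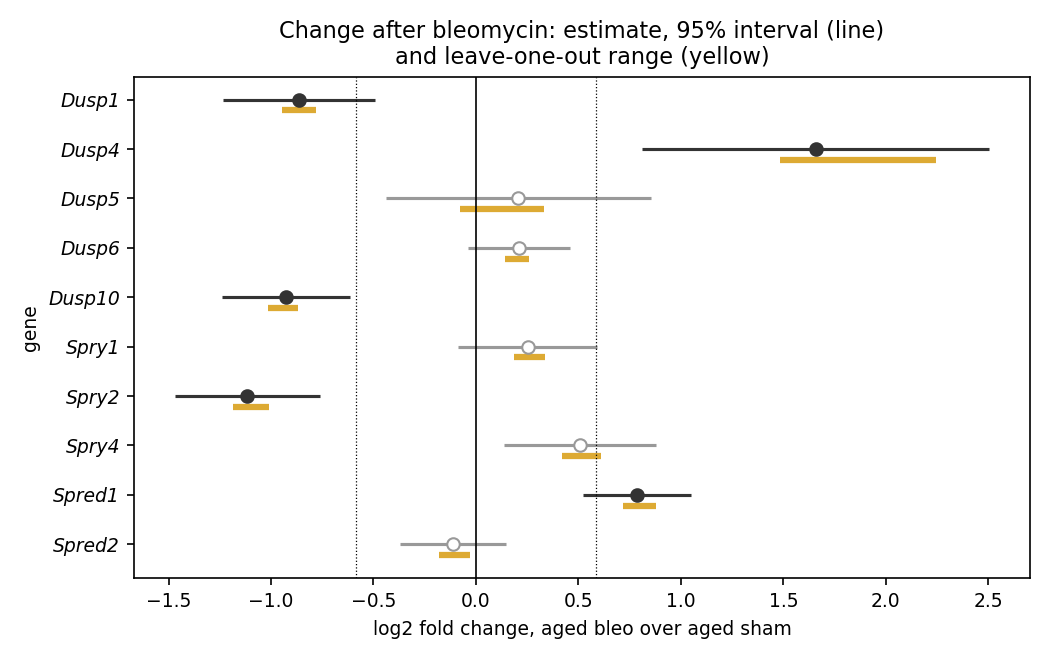
Log2 fold change of each member in aged bleo over aged sham (points, filled where both thresholds were passed) with its 95% confidence interval (line) and the range of estimates with each library left out in turn (yellow). The dotted lines mark a fold change of 1.5 in either direction. Dusp4 has the widest intervals of the called genes, and the estimate of Dusp5 lies on either side of 0 depending on the library left out.

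Taken per length, the balance within each family shifted. In aged sham libraries Spry1 and Spry2 were nearly equal, with 0.962, 0.972, 0.972, and 0.898 times as much FPKM of Spry1 as of Spry2 in aged sham 1 to 4. In aged bleo 1 to 5 this ratio was 2.72, 2.36, 2.43, 2.84, and 2.03, so that Spry1 exceeded Spry2 in every injured library. The ratio is taken within a library and does not depend on how the libraries were scaled. Spry2 made up 47.7 ± 1.39% (SD, n = 4) of the summed FPKM of the 3 Sprouty genes in the aged sham group and 25.6 ± 2.14% (SD, n = 5) in aged bleo, and Spry4 7.07 ± 1.18% and 11.7 ± 0.976%. The sum itself overlapped between the groups, from 27.3 to 32.0 FPKM in the aged sham group and from 19.8 to 29.5 FPKM in aged bleo, with aged bleo 4 and aged bleo 5 below all others.

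The ratio of Spred1 to Spred2 was 1.21 to 1.27 in the aged sham group and 1.71 to 2.94 in aged bleo. Dusp10 exceeded or matched Dusp4 in aged sham, with 1.02 to 4.08 times its FPKM, whereas Dusp4 was 1.51 to 3.68 times as abundant as Dusp10 in aged bleo. Dusp1 made up 88.4 ± 1.04% (SD, n = 4) of the summed FPKM of 10 MAPK phosphatase genes (the 5 Dusp members with Dusp2, Dusp7, Dusp8, Dusp9, and Dusp16) in the aged sham group and 80.7 ± 5.36% (SD, n = 5) in aged bleo. Without Dusp1, the sum of the other 9 was 27.3 ± 0.582 FPKM in the aged sham group and 27.3 ± 4.68 FPKM in aged bleo. The equal means rest on aged bleo 4, at 35.3 FPKM. The other aged bleo libraries were at 23.4 to 26.9 FPKM, against 26.5 to 27.9 FPKM in aged sham. These ratios and shares were not tested on their own.

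**Figure D3:**
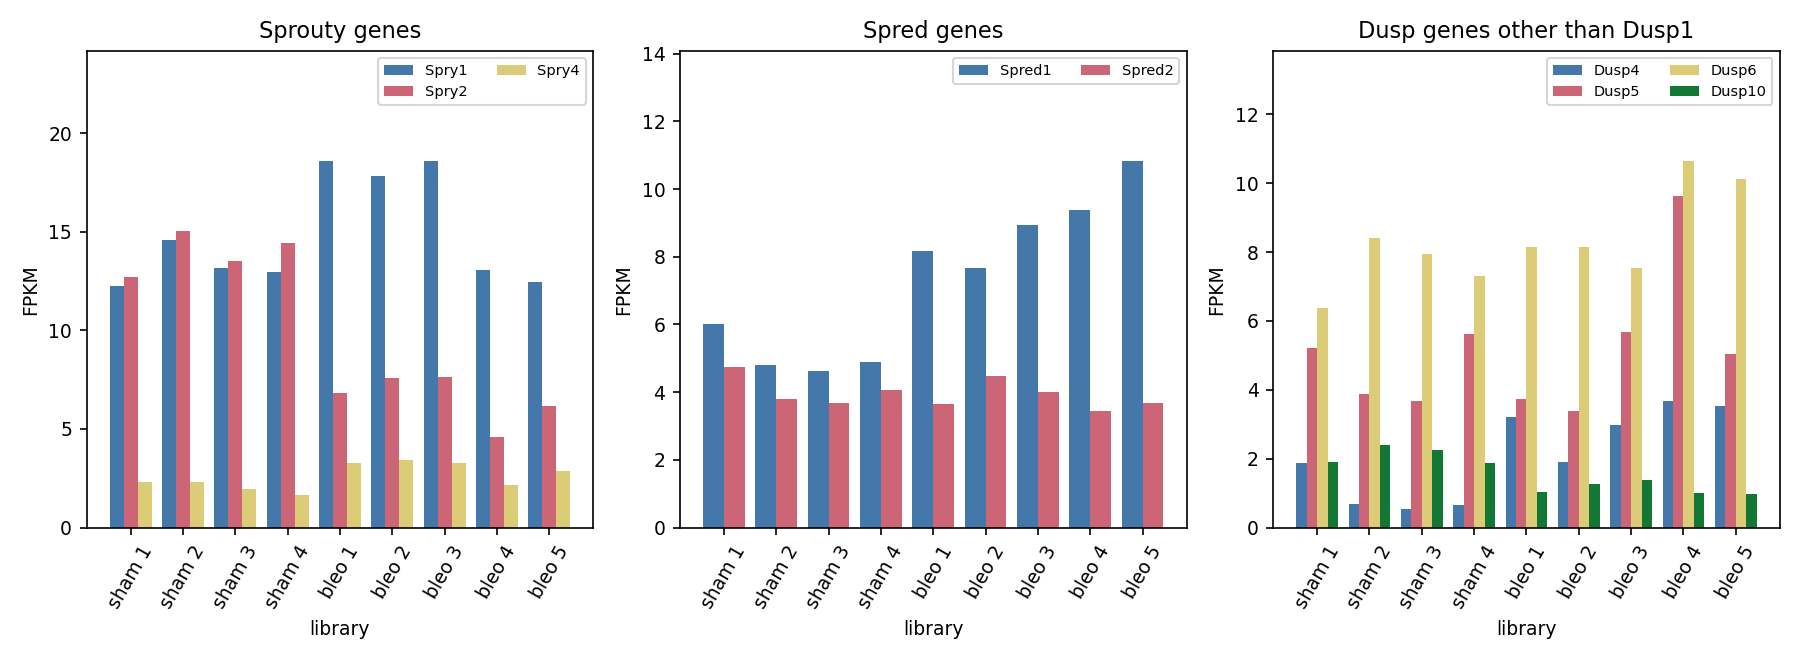
FPKM (linear axis from 0) of the Sprouty genes, the Spred genes, and the Dusp genes other than Dusp1 in each library, with bars side by side for each gene. Spry1 and Spry2 are nearly level in the 4 aged sham libraries, and Spry1 is 2.03 to 2.84 times Spry2 in the 5 aged bleo libraries.

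Ordered by mean FPKM, aged sham fibroblasts had Dusp1 first, then Spry2, Spry1, Dusp6, Spred1, Dusp5, Spred2, Dusp10, Spry4, and Dusp4. Spry2 and Spry1 overlapped, as did the neighbors from Spred1 to Spred2 and from Dusp10 to Dusp4. In aged bleo the order was Dusp1, Spry1, Spred1, Dusp6, Spry2, Dusp5, Spred2, Dusp4, Spry4, and Dusp10. Only Dusp1 and Spry1 at the top and Dusp10 at the bottom were separate from their neighbors there. Spry2 had moved from the 2nd to the 5th place and Dusp4 from the 10th to the 8th.

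The 2 members with the widest range over the 9 libraries were Dusp4 (2.65 on the log2 CPM scale) and Spry2 (1.78). The tested genes whose profile over the 9 libraries was most like that of Dusp4, measured as the root mean square difference of log2 CPM after centering each gene, were Nnat (0.18), 4930503B20Rik (0.24), and Adamts14 (0.24). For Spry2 they included Scml2 (0.11) and Tspan7 (0.11). Tspan7 was at a mean of 19.1 CPM in the aged sham group and 8.94 CPM in aged bleo, and Adamts14 at 15.1 and 41.1 CPM.

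Of the relatives of these families, 6 were tested, and 1 was higher and 1 lower in aged bleo past the thresholds. Dusp8, encoding a phosphatase of JNK and p38, was at 66.5 ± 12.6 CPM (SD, n = 4) in the aged sham group and 29.4 ± 12.3 CPM (SD, n = 5) in the aged bleo group (log2 fold change -1.18, FDR 0.0184). Dusp9, encoding a phosphatase of ERK, was scarce, at 0.130 ± 0.0694 and 1.32 ± 0.870 CPM, and higher in all 5 aged bleo libraries (log2 fold change 3.30, FDR 0.00436). Dusp2, Dusp7, Dusp16, and Spred3 were not called, and Spry3 was not analysed here.

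The inhibitors act on the kinases of the MAPK cascades. Of 19 genes of the ERK cascade, 1 was higher and none lower past the thresholds, with a median log2 fold change of -0.00083. The called gene was Rps6ka1, encoding a kinase downstream of ERK, at 3.98 ± 1.19 CPM (SD, n = 4) and 7.46 ± 4.44 CPM (SD, n = 5), with overlapping libraries (log2 fold change 0.91, FDR 0.0988). Rps6ka1 was at 15.0 CPM in aged bleo 4 and at 4.18 to 6.91 CPM in the other aged bleo libraries, and without aged bleo 4 it was not called (log2 fold change 0.48, FDR 0.177). Its call was also lost without aged sham 1, 2, or 3 or aged bleo 3 or 5 (FDR 0.132 to 0.207), and in limma on log2 CPM (FDR 0.123) and on log2(FPKM + 0.1) (FDR 0.132). In the p38 and JNK cascades, 1 of 12 genes was higher, Mapkapk2 (log2 fold change 0.63, FDR 0.00593, and 0.52 without aged bleo 4, under the fold change threshold), and 1 lower, Mapk12, a p38 gene (log2 fold change -1.37, FDR 6.42e-04). Among 11 receptor tyrosine kinase genes, Pdgfrb was higher (log2 fold change 0.66, FDR 0.00209) and Met and Ddr2 lower (log2 fold changes -1.73 and -0.84, FDR 0.00518 and 0.0113). Of 13 other inhibitors of receptor and Ras signaling, 2 were lower, namely Socs3, a feedback inhibitor of cytokine receptors, and Errfi1, an inhibitor of the EGF receptor (log2 fold changes -1.23 and -0.87, FDR 0.00859 and 0.0105).

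Genes known to respond to ERK moved in both directions, like the members. Past the thresholds, 6 of 13 rose and 3 fell after bleomycin, with a median log2 fold change of 0.61. Etv4, encoding an ETS factor, rose from 3.21 ± 1.73 CPM (SD, n = 4) to 17.8 ± 8.62 CPM (SD, n = 5), Lif, encoding a cytokine, from 44.7 ± 7.20 to 200.3 ± 67.7 CPM, and Hmga2, encoding a chromatin protein, from 0.183 ± 0.0986 to 17.1 ± 15.9 CPM (log2 fold changes 2.47, 2.16, and 6.50, FDR 0.00409, 2.86e-04, and 0.00146). Ccnd1, encoding cyclin D, was at 52.2 CPM in aged sham 1 and 16.1 to 17.0 CPM in the other aged sham libraries, against 41.1 to 153 CPM in the aged bleo group (log2 fold change 1.88, FDR 0.0170). Leaving out aged sham 1 gave Ccnd1 a log2 fold change of 2.497. Aged sham 1 was the highest uninjured library for Ccnd1, as it was for Dusp4, Spred1, Spred2, and Spry4 among the members. Hmga2 had a log2 fold change of 5.89 when aged bleo 4 was left out. The 3 lower genes, named after their values were seen, were Myc, Epha4, and Phlda1 (log2 fold changes -1.58, -1.11, and -0.60, FDR 0.00360, 0.0180, and 0.0116). Phlda1 was under the fold change threshold without aged bleo 4 or without aged bleo 5 (log2 fold change -0.53 in both cases).

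Immediate early and cell handling genes, which respond to stimulation and to the digestion of tissue within minutes, were mostly lower in aged bleo, as was Dusp1. Of 14, 10 were lower and 2 higher past the thresholds, and the median log2 fold change was -0.79. Atf3, encoding a stress-induced transcription factor, fell from 893 ± 176 CPM (SD, n = 4) to 198 ± 92.0 CPM (SD, n = 5), and Zfp36, encoding a protein that destabilizes cytokine mRNA, from 3255 ± 321 to 1232 ± 469 CPM (log2 fold changes -2.17 and -1.40, FDR 0.00177 and 0.00543). The 2 higher genes were Hspa1a and Hspa1b, near-identical copies that encode a heat shock chaperone and whose reads may not be separated (log2 fold changes 1.33 and 1.47, FDR 6.90e-04 and 7.05e-04). The summed level of the list was 19059 to 25093 CPM in the aged sham group and 7883 to 15914 CPM in aged bleo, and aged bleo 4 and aged bleo 5 were lowest (7883 and 8650 CPM), the same libraries in which Dusp1 was lowest. The part of cell handling in the level of Dusp1 was not tested.

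Glucocorticoids also induce Dusp1. Of 8 glucocorticoid response genes, 1 was higher (Fkbp5, log2 fold change 0.64, FDR 0.00347) and 4 were lower, among them Zbtb16 and Klf9 (log2 fold changes -1.40 and -0.95, FDR 0.0113 and 0.00904) and Errfi1, which is also in the list of inhibitors. The median log2 fold change of the 8 genes was -0.35. Zbtb16 overlapped between the groups (lowest aged sham 21.1 CPM, highest aged bleo 21.3 CPM). Sgk1 was higher in every aged bleo library but under the fold change threshold (log2 fold change 0.51, FDR 0.0240). Tsc22d3 was not called (log2 fold change -0.09, FDR 0.852). The part of glucocorticoids in the level of Dusp1 was not tested.

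**Figure D4:**
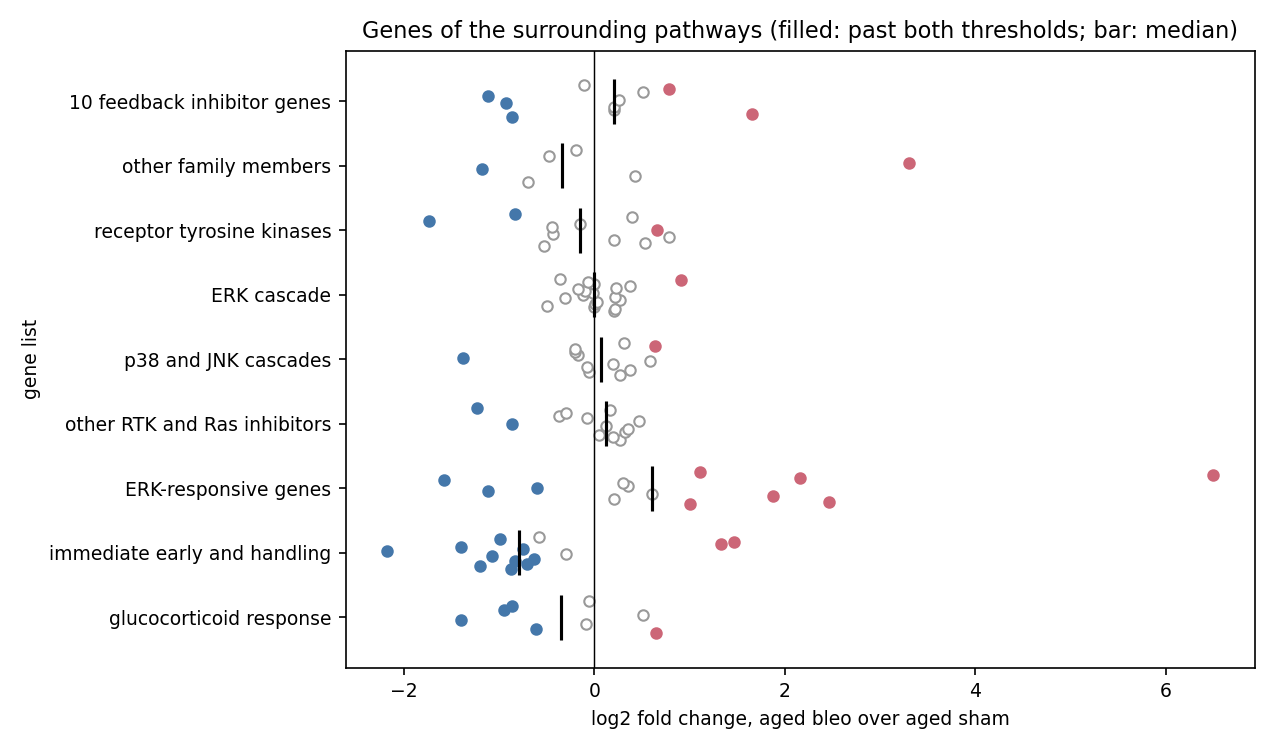
Log2 fold change in aged bleo over aged sham of each tested gene (points) of the 10 members and of 8 lists of the surrounding pathways, colored where both thresholds were passed (red higher, blue lower) and open where they were not, with the list median as a bar. The genes of the ERK cascade cluster around 0, while the members, the ERK-responsive genes, and the immediate early genes spread to both sides.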

How the data were processed

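The 9 RNA-Seq libraries (4 aged sham, 5 aged bleo) were made from sorted GFP+ lung cells. The authors deposited 1 table of raw read counts per gene and FPKM values scaled by them to gene length and library size. The FPKM values do not follow from the count totals given above, and the total they were scaled to was not established here. Per the labels, the submitters' processing notes name bcl2fastq, STAR 2.5.2b, Subread, featureCounts, and mm10 (GRCm38). Whether the counting used strand is not given in the sources used here. Dusp10 and Spry4 overlap other annotated genes, so their reads may not be fully separated.

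Libraries were grouped by their labels. Genes whose counts averaged under 25 were dropped. After TMM normalization, the quasi-likelihood test of edgeR 4.0.16 was run on the counts (R 4.3.3), and FDR values were adjusted by Benjamini-Hochberg over all genes tested. Thresholds (FDR under 0.10, fold change over 1.5) follow the study, which used a moderated test. Standard errors and 95% intervals were derived from the fold change and its test. A prior count of 2 was used for log2 CPM. P-values set the difference between the groups against the spread between libraries within them, which edgeR moderates across genes. No libraries of a group were duplicates (chi-square per degree of freedom between pairs, 26.5 to 378).

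All members are named. In each list up to 4 called genes with the largest absolute change are named, plus genes the members' roles need. Some items these rules name are not reported here. The members and the 16 other lists were chosen with earlier results of these data known. Alternatives were DESeq2 1.42.0, limma 3.58.1 (log2 CPM, log2(FPKM + 1), or log2(FPKM + 0.1)), normalization by RLE or by totals, a robust fit, no filter or a minimum of 10 counts per library, stricter thresholds, a replicate block, and leaving libraries out.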

Additional observations from a re-analysis of the deposited data

Results flagged for a closer look

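The level of Dusp4 in aged sham 1 stood apart from the other 3 aged sham libraries. The gap to the next library, divided by the range of the group, was 0.908, above the critical value of Dixon's test for 4 libraries. It was the only such library in the 20 sets of values examined (10 genes in each group), and chance alone gives about 1 in 20.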

How the results depend on the processing

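All 5 called members were called in the same direction under every alternative except that Dusp10 was under the fold change threshold on log2(FPKM + 1), and Dusp1, Dusp10, and Spred1 under the stricter fold change of 2, which left 2 members called. Over all genes, 4022 were called, 1785 on log2(FPKM + 1), 2158 at the stricter thresholds, and 6177 when only the libraries whose names end in 4 were used (the 4 aged sham libraries and aged bleo 4, a lone library assumed to vary like aged sham). In that last set Dusp5 was called (log2 fold change 0.98, FDR 0.0317), and the log2 fold changes of Spry1 (-0.10) and Spry4 (-0.025) were negative. What these name endings stand for is not stated. Without aged bleo 4, that of Dusp5 was -0.077 and Spry4 was called. With each library left out in turn, 3525 to 4597 genes and 5 to 6 members were called. With aged bleo 4 and aged sham 4 both left out, 3596 genes and the 5 members were called. The replicate numbers are shared by both groups, and whether they mark pairs of samples was not established. Correlations of same-numbered libraries' deviations from their group means ranged from -0.13 to 0.33. Of the 4 aged sham libraries, 1 (aged sham 4) correlated best with its own number. So few pairs can neither show nor exclude a pairing. The replicate block gave 3536 genes and changed no call of a member.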
